A study of Mus musculus with 14 samples.

Results

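*Foxp2* Hox-negative neurons were cells of the E14.5 mouse hindbrain libraries that were chosen by their own transcript counts, as those with at least 2 unique molecular identifiers (UMIs, each standing for 1 captured transcript) of *Foxp2*, at least 5 of the neuronal gene *Mapt*, and none of *Hoxb2*, *Hoxb3*, *Hoxb4*, *Hoxb5*, *Gad2*, *Pax6* or *Pax5*. Cells that held fewer than 1000 genes, or 10% or more of their UMIs from mitochondria, had been removed. The limits kept 1924 of 49696 such cells of E14.5 (3.87%), in a series of 150188 barcodes and 14 libraries. Hindbrain cells of the *Atoh1* lineage, which carry a permanent TdTomato label, were sorted as TdTom+ and DAPI- from 3 control and 3 Atoh1S193A/- embryos on a C57BL/6J background, and each embryo gave 1 single-cell RNA library. Control embryos were Atoh1Cre/+; Rosa lsl-tdTomato/+ and mutant embryos were Atoh1Cre/S193A; Rosa lsl-tdTomato/+. In both genotypes Cre stands in place of 1 *Atoh1* copy, so the controls also carry a null copy, and the label reports a cell that once expressed *Atoh1*, not its state at E14.5. The second copy is intact in controls and has a serine exchanged for alanine in mutants, a hypomorphic allele whose transcript counts do not distinguish it from the intact one. Libraries with the same replicate number came from littermates. The paper lists pair 1 of E14.5 as a female control and a male mutant, pair 2 as males and pair 3 as females. Sex was not a term in any fit.

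ATOH1 is a basic helix-loop-helix factor that specifies the excitatory neurons of the rhombic lip, the dorsal edge of the hindbrain. Hox genes are expressed along most of the hindbrain and are absent from its most rostral segment, which gives rise to the cerebellum and to neurons around the superior cerebellar peduncle, the parabrachial region. FOXP2 is a forkhead transcription factor found in a subset of neurons of many brain regions, including *Atoh1*-derived neurons of the parabrachial region.

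Total UMIs ranged from 121762137 to 193872318 per library, and 6407 to 9713 cells per library passed the limits on genes and mitochondrial UMIs. A member cell held a median of 12488 to 16558 UMIs and 3878 to 4566 genes, depending on the library, with 3.76 to 5.44% mitochondrial UMIs. Pairs of libraries shared 9 to 26 barcodes among all cells kept, and none among the members. Counts of control libraries 1 and 2 came from Cell Ranger 3.1.0 and those of the other libraries from 5.0.1, so 2 of 3 controls and no mutant were made with the older version, and the comparisons were also run without them.

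The values that chose the cells are a description. *Foxp2*, on chromosome 6 from 14901349 to 15441977 (GRCm38, plus strand), reached 677, 872 and 740 CPM (counts scaled to the summed UMIs of the members of a library) in control libraries 1, 2 and 3, and 660, 766 and 799 CPM in the Atoh1S193A/- libraries. The median member held 8 to 10 *Foxp2* UMIs per library, and the highest cell of a library 43 to 61. At the limit itself stood 226 cells with 2 UMIs (11.7% of members), against 1403 cells with 5 or more (72.9%). Cells just inside and just outside the *Foxp2* limit had *Nr4a2* levels closer to each other than to those of the remaining members. *Nr4a2* stood at 117 CPM in otherwise eligible cells with 1 *Foxp2* UMI, at 182 CPM in members with 2 and at 559 CPM in members with 3 or more. *Olig2* ran the other way, from 79.6 to 52.5 and 7.59 CPM.

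Of the other 3 markers given for these cells, *Nr4a2* was the most widely detected. *Nr4a2* (chromosome 2, 57106830 to 57124003, minus strand) encodes an orphan nuclear receptor. Its level was 464, 594 and 468 CPM in control libraries 1 to 3 and 390, 664 and 508 CPM in Atoh1S193A/- libraries 1 to 3. The genotypes overlapped, and the littermates of pair 2 had the highest level of their genotype. After all cells were thinned to 8000 UMIs, which left 1728 of the 1924 members, 65.4% of members (59.8 to 70.8% per library) had a UMI of *Nr4a2*, against 11.97% of dividing cells thinned in the same way. The unthinned share in members was 69.7%, at a median depth of 14578.5 UMIs over the libraries (dividing cells, 25101.5). Dividing cells, taken here as those with at least 2 UMIs of *Mki67* and none of *Mapt*, served as the cells least likely to hold transcripts of mature neurons.

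*Lhx2* and *Calb1* divided the members. *Lhx2* (chromosome 2, 38339281 to 38369733, plus strand), a LIM homeodomain factor, stood at 177, 201 and 164 CPM in controls and at 149, 233 and 156 CPM in mutants, and 51.2% of thinned members had a UMI of it (41.7 to 61.2% per library), against 5.97% of dividing cells. *Calb1* (chromosome 4, 15881264 to 15908064, plus strand) encodes the calcium-binding protein calbindin. It stood at 112, 98.4 and 114 CPM in controls and at 99.2, 40.3 and 123 CPM in mutants, with mutant 2 below every other library. Only 14.4% of thinned members had a UMI of *Calb1* (8.85 to 16.6%), against 0.697% of dividing cells. Without thinning, 265 members (13.8%) had no UMI of *Nr4a2*, *Calb1* or *Lhx2*, 607 had a UMI of 1 of them, 853 of 2, and 199 (10.3%) of all 3.

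**Figure D1:**
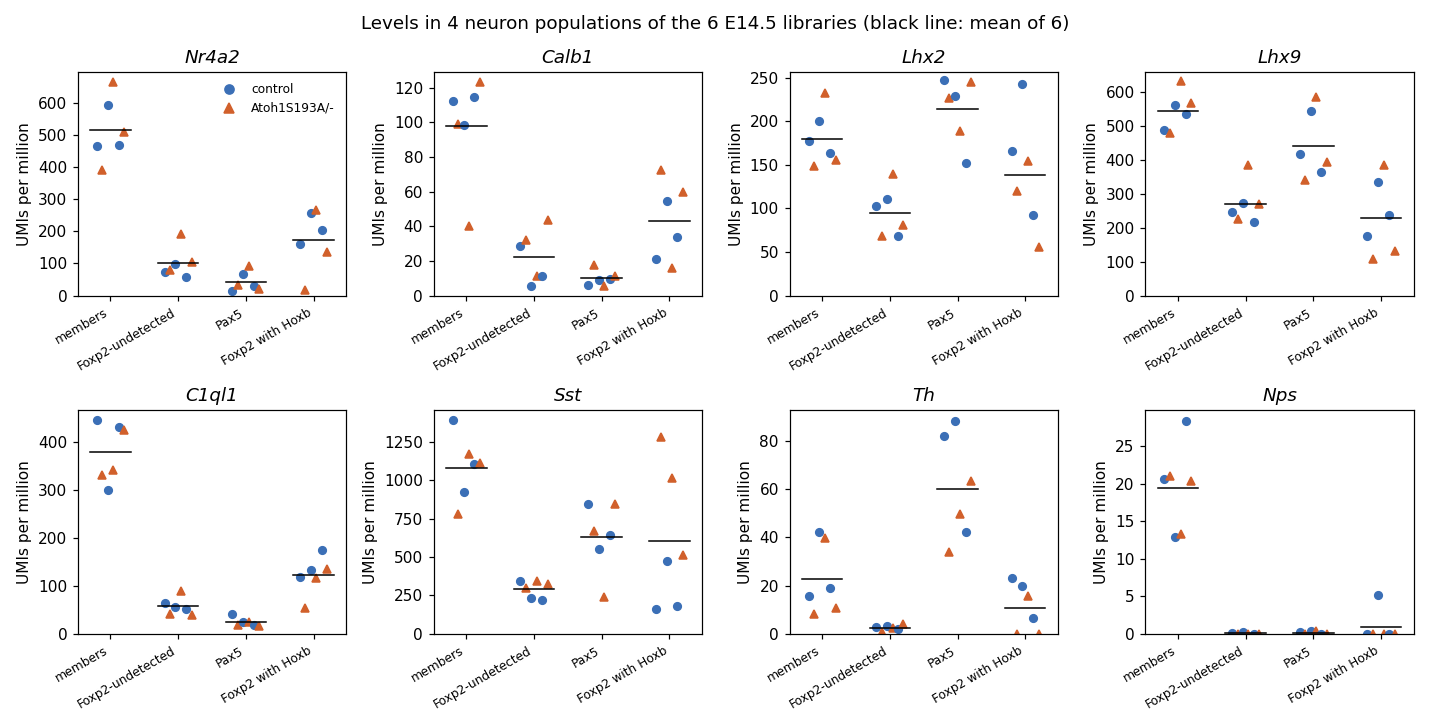
Levels of 8 genes (CPM) in the *Foxp2* Hox-negative neurons and in the 3 comparison populations described below, 1 point per E14.5 library, with circles for controls, triangles for Atoh1S193A/- embryos and a black line at the mean of the 6 libraries. *Nr4a2* lies between 390 and 664 CPM in the members and between 13.0 and 267 CPM in the other populations, *Calb1* is lowest in mutant 2 among the members at 40.3 CPM, and *Lhx2* in the members overlaps with its level in *Pax5* neurons.

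Hox genes that the limits did not use summed to 16.2 to 33.9 CPM in members, and to 23.6 to 131 CPM in the neurons without *Foxp2* described below. Of 19 such genes measured, none exceeded 20 CPM and 11 were under 1 CPM on average. The highest, *Hoxa5*, averaged 6.36 ± 3.09 CPM (SD, n = 6 libraries), and *Hoxa2*, the Hox gene with the most rostral limit of expression, averaged 3.87 ± 1.96 CPM. Of 16 genes of rhombomere 1 and its border with the midbrain, 6 exceeded 20 CPM in members and 7 were under 1 CPM on average. Among the 6 were *Irx2* at 153 ± 18.7, *Irx1* at 101 ± 14.9, *En2* at 30.3 ± 6.65 and *En1* at 28.9 ± 6.55 CPM. *Fgf8*, the signal of that border, had no UMI in any member library.

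Of 6 genes of glutamate transmission 3 exceeded 20 CPM in members. *Slc17a6*, the vesicular glutamate transporter VGLUT2, stood at 180 ± 22.3 CPM (SD, n = 6) and was found in 68.3% of thinned members against 14.3% of dividing cells, while *Slc17a7* and *Slc17a8* were under 1 CPM. *Gad1*, an enzyme of GABA synthesis, was at 2.25 ± 1.28 and *Slc32a1*, the vesicular GABA transporter, at 2.56 ± 2.32 CPM. The 6 genes of GABA and glycine transmission outside the limits summed to 45.8 to 64.4 CPM, and 1 of them exceeded 20 CPM. The limits had left out cells with a *Gad2* UMI, so the low levels of GABA genes are a description of the chosen cells. *Sst*, the peptide somatostatin, is often read as a marker of inhibitory neurons, yet it was the highest peptide transcript here at 1394, 922 and 1108 CPM in controls and 780, 1173 and 1109 CPM in mutants. Its transcripts were uneven: 652 of 1924 members had any UMI of it, and 28.9% after thinning, against 3.59% of dividing cells.

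Transcripts of other peptide genes were found in fewer members. Substance P (*Tac1*) had a UMI in 420 cells, PACAP (*Adcyap1*) in 303, *Penk* in 145, *Cck* in 115, *Pdyn* in 113, *Pth2* in 77, *Grp* in 45 and *Crh* in 18. After thinning, *Tac1* was found in 16.02% of members against 2.96% of dividing cells, *Adcyap1* in 9.53 against 2.36%, *Penk* in 6.6001 against 1.51%, *Cck* in 4.77 against 0.705%, *Pdyn* in 3.60 against 0.307%, *Pth2* in 2.75 against 0.0954%, *Grp* in 1.87 against 0.135% and *Crh* in 0.671 against 0.0819%. *Nts* (0.378 against 2.56%) and *Calca* (0.133 against 1.06%) were below the share in dividing cells, and the source of their UMIs in members was not tested. *Nps*, which encodes the arousal peptide neuropeptide S (chromosome 7, 135258703 to 135272942, plus strand), was found in 104 members. Its level was 20.7, 12.8 and 28.4 CPM in controls and 20.99, 13.3 and 20.3 CPM in mutants, with pair 2 lowest in both genotypes. In the other populations described below it averaged 0.061, 0.152 and 0.86 CPM, and after thinning it was found in 4.07% of members and 0.0219% of dividing cells. *Nps* was below the limit for testing, a UMI in 10% of the cells of a population. *Th*, the rate-limiting enzyme of dopamine and noradrenaline synthesis (chromosome 7, 142892752 to 142931128, minus strand), had a UMI in 252 members and reached 15.8, 42.1 and 18.8 CPM in controls and 8.13, 39.5 and 10.8 CPM in mutants, so that pair 2 stood above the others in both genotypes. *Dbh* and the transporters *Slc6a2* and *Slc6a4* had no UMI in the member sums, *Slc18a2* averaged 2.88 CPM and *Ddc* 10.0 CPM.

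To ask how these neurons differ from their neighbors, UMIs were summed per library and compared with 3 populations of the same libraries by edgeR's quasi-likelihood test, with the library as a block. The populations were 3775 neurons that met all limits but had no *Foxp2* UMI, 2672 neurons with at least 2 UMIs of *Pax5* that met the limits on *Mapt*, *Hoxb2* to *Hoxb5*, *Gad2* and *Pax6*, and 365 *Foxp2* neurons that met the limits but had at least 2 UMIs of *Hoxb2* to *Hoxb5*. A gene was called at a Benjamini-Hochberg adjusted p under 0.05 and a log2 difference over 1, and the 9 genes of the limits were left out of every count. The 3 comparisons share the sums of the members, so they are not independent of each other. *Nr4a2*, *Calb1* and *Lhx2* were given as markers of these cells with earlier results of the same data known. Their differences and p-values are therefore a description in all 3 comparisons. Each library gave both sums from 1 embryo, and the p-values describe the spread of the difference over 6 embryos.

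Against neurons without *Foxp2*, 170 of 9389 genes tested were called (1.81%), 89 higher (0.948%) and 81 lower (0.863%) in members. The median log2 difference over all genes tested was 0.00. A gene was tested where it had a UMI in 10% of the cells of either population, so a gene rarer than that in 1 of them entered through the other. With every gene with a UMI tested, 165 of the 170 calls remained. *Th* showed the largest rise, with 22.5 ± 14.7 CPM in members and 2.57 ± 1.10 CPM in the other neurons (SD, n = 6), a log2 difference of 3.17 (SE 0.31, edgeR adjusted p = 6.04e-04). *C1ql1*, which encodes a secreted synaptic organizer of the C1q family (chromosome 11, 102939264 to 102946688, minus strand), stood at 445, 299 and 431 CPM in control and 330, 341 and 424 CPM in mutant members, and at 64.9, 56.5, 51.9, 41.9, 89.8 and 39.9 CPM in the other neurons of the same libraries in that order. The groups did not overlap (log2 2.70, SE 0.21, edgeR adjusted p = 4.44e-04). *Nr4a2* was likewise separate, at 390 to 664 CPM against 57.6 to 190 CPM (log2 2.42, SE 0.17, edgeR adjusted p = 2.78e-04), and so was *Irx4*, an Iroquois homeodomain factor, at 31.9 to 64.2 against 7.40 to 12.7 CPM (log2 2.31, SE 0.08, edgeR adjusted p = 5.72e-18).

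Further genes with the largest rises were *Col25a1*, a membrane collagen (log2 2.37), *Necab2*, a neuronal calcium-binding protein (2.34), *Calb1* (2.31), the ETS factor *Etv1* (2.16), *Dlk1* (2.13) and the MADS-box factor *Mef2c* (2.06, 89.3 ± 10.7 against 21.1 ± 2.51 CPM). The largest falls were those of *Tnfaip8* (-3.19), *Kitl*, the ligand of the KIT receptor (-2.82), *Olig2* (-2.67), *Stc1* (-2.12), the bZIP factor *Maf* (-2.01), *Zic2* (-1.98), *Neurod2* (-1.89), the nuclear receptor *Esrrg* (-1.85) and *Neurod6* (-1.74). The choice of these genes was limited to those that moved in the same direction in 6 of 6 libraries. *Olig2*, *Zic2* and *Esrrg* were below the limit for testing in members and were tested through the neurons without *Foxp2*, where they were higher. *Th* was below it in those neurons and was tested through the members. In the 4 libraries left without the 2 controls of the older Cell Ranger version, *Calb1* (2.06), *Dlk1* (2.19), *Esrrg* (-1.98) and *Olig2* (-2.40) kept their direction but not their calls (edgeR adjusted p 0.0614 to 0.103).

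*Lhx2*, although given as a marker, fell short of the limit (180 ± 31.6 against 95.1 ± 28.2 CPM, log2 0.93, SE 0.07, edgeR adjusted p = 1.98e-05). Its paralog *Lhx9* just exceeded it (log2 1.02) at 488, 562 and 536 CPM in control and 479, 634 and 569 CPM in mutant members, and without control 3 it stood at 0.97. Among 12 tested of 20 transcription factors of the rostral rhombic lip and cerebellar nuclei, 2 were higher (*Lhx9* and *Barhl2*, log2 1.09, or 0.95 without mutant 1) and 4 lower, all of them zinc fingers of the Zic family. These were *Zic2* (-1.98), *Zic1* (-1.65), *Zic5* (-1.54) and *Zic4* (-1.16). Like *Zic2*, *Zic5* was tested through the neurons without *Foxp2*. Of 32 tested neuronal identity factors, 5 were higher, with *Nr4a3*, a relative of *Nr4a2*, at log2 1.97, and 6 lower, with *Nfix* at -1.70. The forkhead paralogs of *Foxp2* went opposite ways: *Foxp4* was higher (26.6 ± 5.14 against 10.9 ± 1.24 CPM, log2 1.27) and *Foxp1* lower (49.5 ± 13.7 against 143 ± 26.0 CPM, log2 -1.50). Without the 2 controls of the older Cell Ranger version *Foxp1* was at -1.36 and was not called (edgeR adjusted p = 0.132).

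Among neuropeptides and calcium-binding proteins, *Sst* was higher (1081 ± 212 against 293 ± 53.6 CPM, log2 1.88, SE 0.13), together with *Necab2* and *Calb1*, and calretinin (*Calb2*) was lower (log2 -1.37). Of 32 tested genes of axon guidance and adhesion 6 were lower and 1 higher, with a list median of -0.28, beside 0.0031 over all genes tested. The netrin receptor *Unc5d* was higher (log2 1.44), and the ephrin receptor *Epha4* (-1.67), the cadherin *Cdh8* (-1.39), *Cntn2* (-1.24) and *Ntng1* (-1.21) were lower. The call of *Cntn2* was lost without control 1 (-1.27, edgeR adjusted p = 0.0512) and without mutant 2 (-1.13, edgeR adjusted p = 0.0660), and those of *Cntn2* (-1.02), *Epha4* (-1.55) and *Calb2* (-1.21) without the 2 older-version controls (edgeR adjusted p 0.0914 to 0.137). Of 29 cytoskeletal and synaptic maturation genes, the neurofilaments *Nefm* (-1.26) and *Nefl* (-1.10) were lower and none was higher. Without the 2 older-version controls *Nefl* was at -0.997, just short of the limit of 1 (edgeR adjusted p = 0.00498). Of 26 glutamate and GABA receptor subunits, 2 were higher, *Gabrg3* (1.29) and *Gabrb1* (1.22), and 1 lower. *Slc17a6* did not pass (log2 0.06, SE 0.03), and none of 21 ion channel genes was called. Of *Atoh1* and its reported targets, 10 were tested. *Mab21l2* (1.08) and *Barhl2* were higher, and *Atoh1* itself was lower at 7.36 against 16.6 CPM (-1.21, and -0.99 without mutant 2).

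Markers of the granule and pontine lineage moved with this comparison. Their summed level was 118 to 306 CPM in members and 379 to 783 CPM in the neurons without *Foxp2*, and 5 of 7 tested were lower, among them *Neurod2* and *Neurod1* (-1.53, and -1.27 without the 2 older-version controls, edgeR adjusted p = 0.0601). Blood, vessel and immune markers summed to 7.24 to 115 CPM in members and 6.51 to 1340 CPM in the other neurons, the highest in control 1. The part of these cells in the differences was not tested. The pro-apoptotic gene *Hrk* (log2 -1.67, 7.90 against 25.2 CPM) was the only 1 of 15 tested cell death genes called. *Hrk* was below the limit for testing in members and was tested through the neurons without *Foxp2*, where it was higher.

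Against *Pax5* neurons, 275 of 9436 genes were called (2.91%), 155 higher (1.64%) and 120 lower (1.27%) in members. PAX5 is a paired-box factor of the midbrain-hindbrain border. *C1ql1* had the largest rise (378 ± 62.2 against 23.8 ± 9.27 CPM, log2 4.00, SE 0.18, edgeR adjusted p = 2.34e-05). *Nr4a2* was at 390 to 664 CPM in members and 13.0 to 93.5 CPM in *Pax5* neurons (log2 3.60, SE 0.29, edgeR adjusted p = 3.29e-04), and *Calb1* at 40.3 to 123 against 5.64 to 17.8 CPM (log2 3.34, SE 0.17, edgeR adjusted p = 1.66e-05). Then followed *Gm28050* (3.34), the homeodomain factor *Barhl2* (3.07), the heparan sulfate enzyme *Hs6st2* (3.03), *Etv1* (2.93), *Dlk1* (2.86), *Necab2* (2.83) and the phosphatase *Ptpre* (2.79). *Ppp1r17*, a phosphatase inhibitor, fell furthest (1.80 ± 0.80 against 36.5 ± 6.13 CPM, log2 -4.28, SE 0.15, edgeR adjusted p = 2.49e-17), and *Adarb2*, an RNA-binding protein of the ADAR family, followed (14.1 ± 2.56 against 156 ± 15.3 CPM, log2 -3.46). *Ppp1r17* was below the limit for testing in members and was tested through the *Pax5* neurons, where it was higher. *Flrt1* (-2.76), *Plch1* (-2.73), *Plpp4* (-2.59), *Zeb2* (-2.57), *Spry2* (-2.37), *Hs3st4* (-2.29) and *Bnc2* (-2.26) were also among the largest falls. *Bnc2*, too, was below the limit for testing in members and was tested through the *Pax5* neurons.

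The engrailed factors *En1* (28.9 ± 6.55 against 136 ± 14.2 CPM, log2 -2.14) and *En2* (-2.01) and the FGF modulator *Cnpy1* (-1.47) were lower, 3 of 7 tested genes of the isthmus and rhombomere 1. Both populations had been chosen by their counts of *Pax5*, a gene of the same border, so these levels are a description. *Evx1* (-2.03), *Zic1* (-1.39, and -1.23 without the 2 older-version controls, edgeR adjusted p = 0.0576) and *Evx2* (-1.22) were lower and *Barhl2* higher among 12 rostral rhombic lip factors, whereas *Lhx2* (180 ± 31.6 against 215 ± 37.2 CPM, log2 -0.19, SE 0.16) and *Lhx9* (log2 0.34, SE 0.09) were not called. *Nr4a3* (2.63) and *Rora* (2.49) were higher and the POU factor *Pou3f2* (-1.97) and *Ebf2* (-1.51) lower among 30 identity factors. *Mef2c* (1.60) and *Foxp4* (1.02) were higher, *Foxp4* at 0.97 to 0.99 without control 1, control 2 or any 1 mutant and at 0.92 without the first 2 controls together. *Th* was lower in members (22.5 ± 14.7 against 59.9 ± 21.9 CPM, log2 -1.27, SE 0.33, edgeR adjusted p = 0.0317). That call was lost in 5 of the 6 fits that left out a library, with edgeR adjusted p between 0.0662 without mutant 3 and 0.0786 without control 3, and it held without mutant 2. Without the first 2 controls together *Th* was at -1.15 and was not called (edgeR adjusted p = 0.192).

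Of 24 tested glutamate and GABA receptor subunits 5 were higher and none lower, namely *Gabrg3* (2.02), *Gabrb1* (1.70), *Gabra5* (1.47), *Grik1* (1.42) and *Grin2d* (1.06), with a list median of 0.40, beside -0.0094 over all genes tested. The potassium channel genes *Kcnd2* (1.71) and *Kcnj6* (1.05, or 0.99 without control 1) were the only 2 of 20 ion channels called. *Tac1* (1.98) was higher, as was *Calb2* (2.34), whose call was lost without control 3 and without each mutant (edgeR adjusted p 0.0669 to 0.0845). *Sst* was not called (log2 0.88, SE 0.30). *Cdh6* (1.49), *Unc5d* (1.24) and *Efnb2* (1.19) were higher and *Cntn2* (-1.25) lower among 30 guidance genes. Of the *Atoh1* targets, *Pcp4* (2.44), *Mab21l2* (2.03) and *Barhl2* were higher. The immediate early genes *Fos* (1.12) and *Fosb* (1.30), which also respond to dissociation, were higher in members. Blood, vessel and immune markers summed to 5.17 to 3412 CPM in *Pax5* neurons, above 500 CPM in control 1, control 2 and mutant 1 (3412, 1666 and 527 CPM), and to 7.24 to 115 CPM in members. Their part in the differences was not tested.

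Against *Foxp2* neurons with Hoxb transcripts, 182 of 10305 genes were called (1.77%), 48 higher (0.466%) and 134 lower (1.30%) in members. The 365 cells of that population had deeper libraries, with a median of 17178 to 27118 UMIs per cell, and 6.06 to 34.2% of them lay among the 7.5% of cells with the highest doublet scores, against 1.08 to 2.80% of members. With those cells left out, 181 genes were called, 156 of them among the 182. The falls included 11 Hox genes outside the limits. Of the 19 measured, these 11 passed the filter on low values in this comparison and none in the others, through the population where they are high, and the limits on *Hoxb2* to *Hoxb5* had chosen that population, so their levels are a description. *Hoxa4* stood at 1.62 ± 0.52 against 90.4 ± 36.9 CPM, *Hoxa5* at 6.36 ± 3.09 against 284 ± 89.0 CPM and *Hoxc4* at 3.28 ± 1.94 against 121 ± 22.1 CPM. Other large falls were those of the noncoding transcripts *D130009I18Rik* and *Gm12688* and the forkhead factor *Foxd3*. *Foxd3* averaged 0.48 CPM in members and 20.1 ± 18.8 CPM in the other *Foxp2* neurons.

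Among the genes higher in members than in *Foxp2* neurons with Hoxb, *Calb2* led (65.7 ± 41.9 against 17.4 ± 12.1 CPM, log2 2.08, SE 0.26, edgeR adjusted p = 1.36e-03), followed by *Gng8* (1.71), *C1ql1* (1.58), *Nr4a2* (1.56), *Cdh18* (1.51), *Irx4* (1.49), *D930028M14Rik* (1.46), *Npnt* (1.46), *Irx1* (1.41) and *Dlk1* (1.40). *Nr4a2* ranged from 18.54 to 267 CPM in the comparison population and did not overlap with the members. Its adjusted p of 0.0284 by edgeR became 0.0760 to 0.0910 when control 1, 2 or 3 or mutant 2 or 3 was left out. *Irx4* lost its call without control 2, mutant 2 or mutant 3 (edgeR adjusted p 0.0785 to 0.129), and *Dlk1* and *Irx1* without mutant 2 (edgeR adjusted p 0.0511 and 0.0750). Of 15 tested rostral rhombic lip factors 7 were lower and 1 higher, with a list median of -0.81, beside -0.0024 over all genes tested. The 1 higher was *Lhx9* (log2 1.27), which is named after its values were seen and lost its call without any 1 library (edgeR adjusted p 0.0606 to 0.104). Without both controls of the older Cell Ranger version, *Nr4a2* (1.71), *Irx4* (1.75), *Irx1* (1.65), *Irx5* (1.08), *Dlk1* (1.59), *En2* (1.21) and *Lhx9* (1.41) remained higher but were not called (edgeR adjusted p 0.0522 to 0.206).

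*En2* (1.24), *Irx1* and *Irx5* (1.14) were higher, and none lower, among 6 tested isthmus and rhombomere 1 genes, *En2* not passing without mutant 3 (edgeR adjusted p = 0.0521), nor without the highest doublet scores (1.55, edgeR adjusted p = 0.0959), nor with cells thinned to 8000 UMIs (0.98, under the limit of 1). *Calb1* (1.21) and *Necab2* (1.11) were higher, *Calb1* not passing without mutant 2 or 3, nor without the highest doublet scores (1.22, edgeR adjusted p = 0.134), nor with cells thinned to 8000 UMIs (0.91, edgeR adjusted p = 0.0593). Of 34 tested identity factors 3 were higher, among them *Onecut1* (1.89) and *Nr4a3* (1.59), and 5 lower, among them *Prox1* (-1.80), with a list median of -0.31. *Zic4* (-3.30), *Zic1* (-2.62) and *Bhlhe22* (-1.87) were lower. *Lhx1* stood at 16.7 ± 9.51 CPM in members and 64.5 ± 29.0 CPM in the other *Foxp2* neurons, and *Lhx5* at 6.26 ± 3.31 and 27.2 ± 24.8 CPM. *Lhx2* (log2 0.42, SE 0.23) and *Sst* (1.08, SE 0.55) were not called. The guidance receptor *Unc5c* (-1.59), the neurofilaments *Nefm* (-1.37) and *Nefl* (-1.21), the potassium channel *Kcna1* (-1.80), and *Hrk* (-1.16, or -0.97 without mutant 2) were lower. The progenitor gene *Nes* stood at 3.54 ± 0.73 CPM in members and 9.12 ± 4.75 CPM in the other *Foxp2* neurons, and *Sox9* at 6.32 ± 4.99 and 16.6 ± 20.1 CPM, its highest level there, 56.97 CPM, in mutant 3. Without mutant 3 *Sox9* was at -0.98, under the limit of 1, and was not called. *Lhx1*, *Lhx5*, *Nes*, *Sox9*, *Zic4*, *Bhlhe22*, *Prox1*, *Kcna1* and *Hrk* had a UMI in fewer than 10% of members and were tested through the population where they were higher. All of them were also called when every gene with a UMI was tested. The summed level of 13 dividing progenitor genes was 140 to 216 CPM in members and 137 to 392 CPM in the other *Foxp2* neurons.

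**Figure D2:**
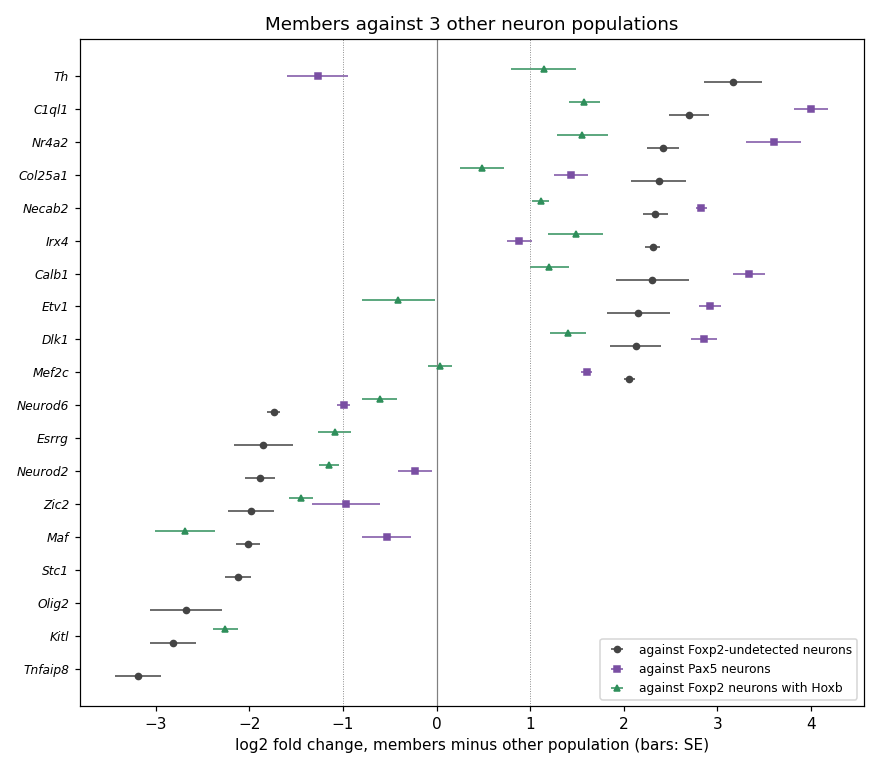
Log2 differences (members minus comparison population, bars SE) for the genes named above with the largest called rises and falls against neurons without *Foxp2*, with the values of the same genes against *Pax5* neurons and against *Foxp2* neurons with Hoxb where tested. *Nr4a2* and *C1ql1* lie above 1 in all 3 comparisons, while *Th* is at 3.17 against neurons without *Foxp2* and at -1.27 against *Pax5* neurons.

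The members were themselves heterogeneous. Clustering of the 1924 cells without the genes of the limits gave 13 clusters of 28 to 283 cells, which are described by their leading genes and were not named or tested. In the 6 largest the median cell held 7 to 14 *Foxp2* UMIs. Cluster 1 (283 cells) was led by *Gm28526*, *Pappa*, *Onecut1*, *Apod* and *Igsf21*. It held 57.0% of all *C1ql1* UMIs of the members, at 1462 CPM, and 49.3% of the *Tac1* UMIs. Cluster 2 (266 cells) was led by *Mgll*, *Spon1*, *Etv1*, *Igfbp5* and *Sema5a*, with *Calb1* at 166 and *Th* at 55.6 CPM.

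Cluster 3 (248 cells) was led by *Nps*, *Fam19a1*, *Pcsk1* and *Barhl2*. *Nps* reached 150 CPM there against 4.52 CPM in the other members, and the cluster held 78.3% of the *Nps* UMIs. PCSK1 is a convertase that cuts peptide precursors. *Nr4a2* was at 1254 CPM in this cluster. Cluster 4 (247 cells) was led by *Irs4*, *Th*, *Cacng3*, *St6galnac5* and *Inpp4b*, with *Th* at 101 CPM against 13.3 CPM elsewhere and 63.1% of the *Penk* UMIs. It held 19.4 and 15.7% of the members of pair 2 and 7.76 to 10.3% of those of the other 4 libraries, the same pair in which *Th* was highest. Cluster 5 (211 cells) was led by *Thrb*, *Irx1*, *Col25a1*, *Mpped2* and *Irx3*, so that 2 Iroquois genes were among its leaders. *Irx4* reached 167 CPM there and 0.947 CPM in cluster 1. Cluster 6 (176 cells) was led by *Mctp1*, *Dgkk*, *Nr4a3*, *Ppic* and the orexin receptor *Hcrtr2*, with *Nr4a2* at 1430 and *Sst* at 2948 CPM.

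Cluster 10 (61 cells) was led by *Pth2*, *Necab1*, *Calb1*, *Cpne7* and *Sst*. It held 49.4% of the *Calb1* UMIs of the members (1122 CPM against 48.9 elsewhere) and 39.9% of the *Sst* UMIs (10653 against 684 CPM), and 1.11 to 5.15% of the members of a library. Cluster 7 (148 cells) was led by *Olig2*, *Neurod1*, *Neurod2*, *Zic2* and *Nfib*, with a median of 3 *Foxp2* UMIs, *Nr4a2* at 59.2 CPM, and 9.46% of its cells among the highest doublet scores. Cluster 8 (99 cells) was led by *Mafa*, *Sp9*, *Crabp1*, *Nos1* and *Pou3f1*, and it held 47.9% of the few *Hoxa2* UMIs. Cluster 9 (96 cells) was led by *Ttr*, *Lef1*, *Shox2*, *Pou4f1* and *Sox2*, with 19.8% of its cells among the highest doublet scores. Transthyretin (*Ttr*) is a choroid plexus transcript and reached 10197 CPM against 60.1 CPM elsewhere.

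Clusters 11, 12 and 13 held 32, 29 and 28 cells and were led by *Asb4*, *Fst*, *Peg10*, *En1* and *Neurod6*, by *Fgf3*, *Fgf15*, *Pcp2*, *Lhx1* and *Car8*, and by *Tcf7l2*, *Tfap2d*, *Barhl1*, *Shox2* and *Cfap77*. Cluster 12 had *Slc32a1* at 80.9 CPM and *Slc17a6* at 24.3 CPM, while *Slc17a6* was between 120 and 265 CPM in the other 12. *Nr4a2* was at 13.4 to 48.0 CPM in these 3 clusters.

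**Figure D3:**
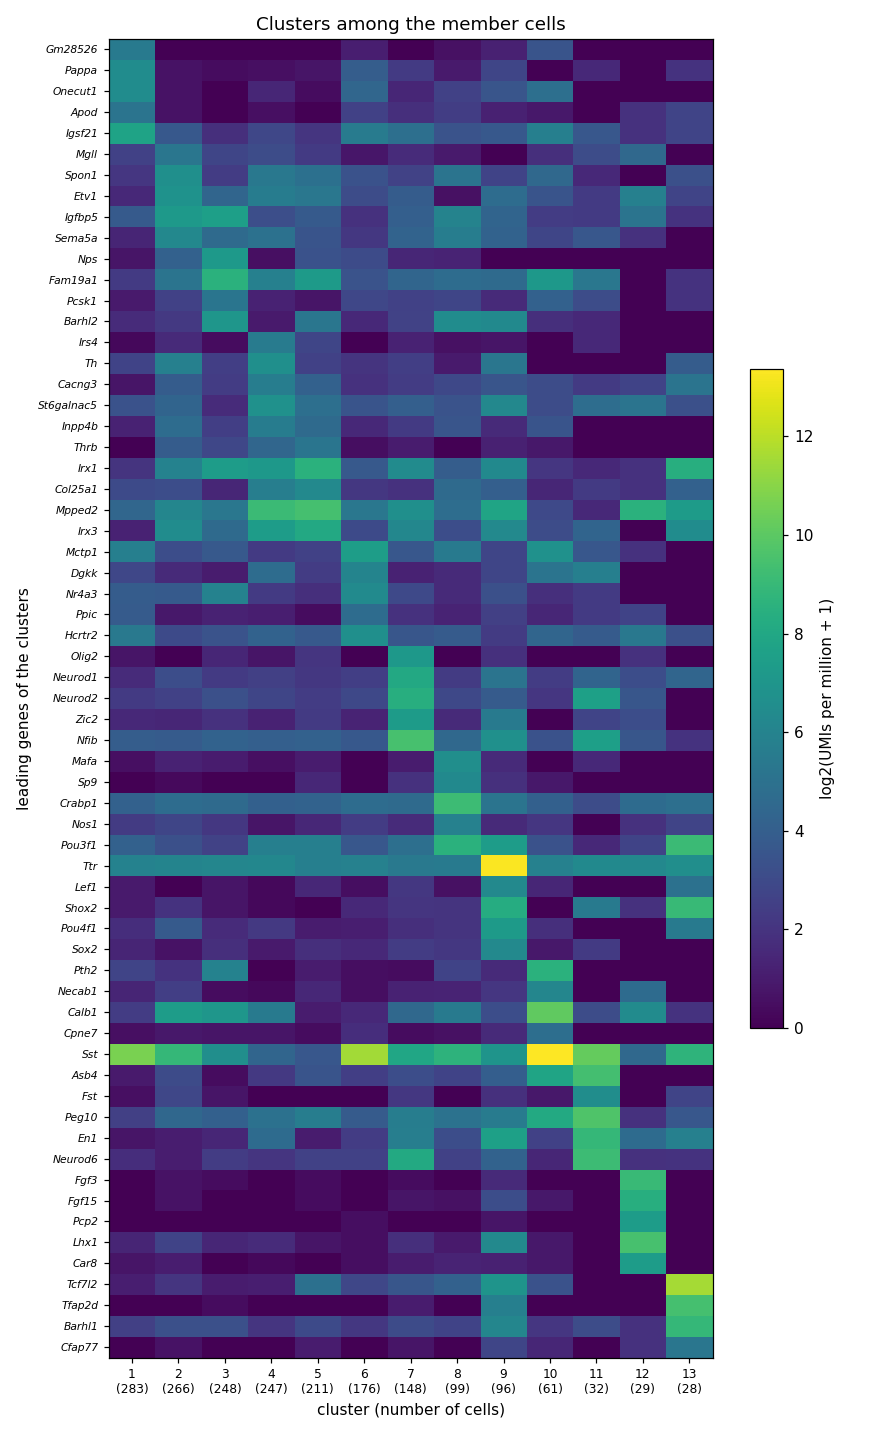
Levels (color, log2 of CPM + 1) of the leading genes named for each cluster (rows) in the 13 clusters of *Foxp2* Hox-negative neurons (columns, with their numbers of cells). *Sst* is highest in cluster 10 and also high in clusters 1 and 6, *Ttr* stands out in cluster 9, and *Nps* is highest in cluster 3.

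The share of these neurons among all cells kept was 4.03, 4.89 and 3.80% in control libraries 1, 2 and 3 (258, 433 and 369 cells) and 2.26, 5.60 and 2.59% in the Atoh1S193A/- libraries (180, 465 and 219 cells). In pairs 1 and 3 the mutant was lower than its littermate and in pair 2 it was higher, and the genotypes overlapped. The means were 4.24 ± 0.57% and 3.48 ± 1.84% (SD, n = 3 each), a difference of -0.28 on the logit scale (SE 0.33, 95% interval -0.98 to 0.42, limma adjusted p = 0.566 over 5 classes of cells). An exact 2-sided permutation test gave p = 0.6, where 0.1 is the smallest p that 3 libraries against 3 allow. Without mutant 2 the difference was -0.57 and passed (limma adjusted p = 0.015), so mutant 2 alone decided this call. Neurons without *Foxp2* went from 7.90 to 5.33% in pair 1, from 9.64 to 9.56% in pair 2 and from 8.30 to 4.62% in pair 3, control to mutant (logit difference -0.35). *Pax5* neurons went from 4.37 to 2.77%, from 7.45 to 8.24% and from 5.35 to 3.64% (logit difference -0.26). Members were also counted as a share of neurons, the kept cells with at least 5 *Mapt* UMIs and none of *Hoxb2* to *Hoxb5* or *Gad2*. That difference was negative as well and did not pass. The limits count UMIs, so a cell with fewer of them is less likely to reach the minimum of *Foxp2* and *Mapt* and more likely to be at 0 for the other 7 genes. Members held a median of 14640, 12488 and 14517 UMIs in controls and 15780, 13973 and 16558 in mutants, higher in the mutant of every pair. When cells were thinned to a common depth before the limits were applied, the call of the member share did not change. How much of the difference in shares came from depth was not tested. Dividing cells made up 2.33 to 9.10% of a library, 242, 206 and 386 cells in controls and 678, 438 and 770 in mutants. They hold no *Mapt* UMI and so lie outside the share of neurons given above. Their part in the shares of all cells kept was not tested.

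The same limits, applied to the 6 E18.5 libraries that were not used in choosing them, kept 201 of 55054 cells (0.365%), and at P5, in cells of the dissected pontine nuclei of controls, 2 of 17908. At E18.5 the libraries held 23, 36 and 13 cells in controls and 26, 25 and 78 in mutants, 0.269 ± 0.120% and 0.477 ± 0.372% (SD, n = 3 each). The mutant share was not distinguishable from that of controls (logit difference 0.45, 95% interval -0.49 to 1.39, limma adjusted p = 0.735), and mutant 3 held most of the cells of its genotype. The genotype difference did not pass a test of change between the stages (interaction 0.73, SE 0.55, 95% interval -0.40 to 1.87, limma adjusted p = 0.502).

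**Figure D4:**
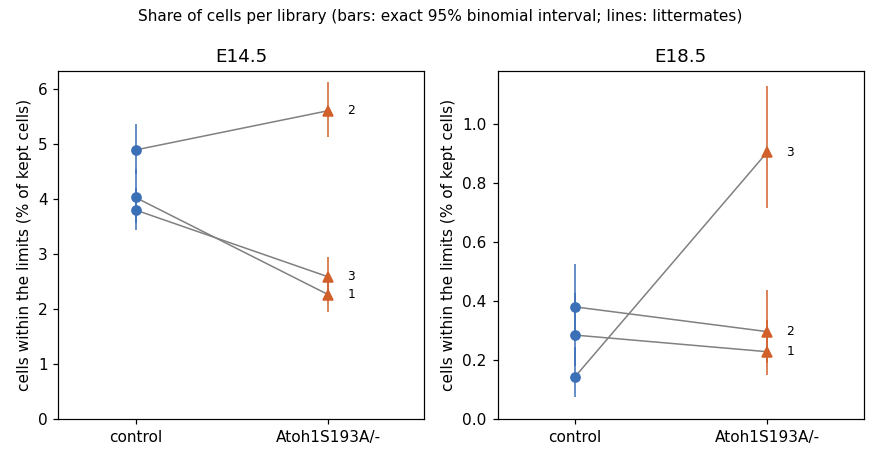
Share of *Foxp2* Hox-negative neurons (percent of cells kept) in each library at E14.5 and of cells within the same limits at E18.5, by genotype, with exact 95% binomial intervals, which cover counting error only, and lines between littermates. At E14.5 mutants 1 and 3 lie below their littermates (2.26 and 2.59%) and mutant 2 lies above (5.60%).

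Within the neurons, no gene passed the genotype test of the 3 mutant against the 3 control sums (0 of 9331 tested by edgeR, 0%, limit log2 0.25 and adjusted p under 0.05). In the same fit 119 genes (1.28%) had an unadjusted p under 0.05, and 507 (5.43%) had genotypes that did not overlap. DESeq2 called 1 gene higher, *Id3*. Littermates deviated together, so the fit with the replicate number as a block, which compares each mutant with its littermate, is given beside it, and edgeR then called 12 genes (0.129%), 10 higher (0.107%) and 2 lower (0.0214%) in mutants. Of the 3 markers that the limits did not use none was called, with log2 differences of -0.36 for *Calb1*, -0.042 for *Lhx2* and -0.00083 for *Nr4a2*, and none of any of the fixed gene lists was in the fit without the block.

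*Id3*, an inhibitor of basic helix-loop-helix factors, was at 3.06, 3.94 and 8.25 CPM in control and 8.46, 21.7 and 26.9 CPM in mutant members. Every mutant was above its littermate and above all controls (log2 1.90, edgeR adjusted p = 5.08e-06 with the block). Of its 358 UMIs in members, 68.2% came from the 96 cells of cluster 9, which held 3.88, 5.54 and 5.15% of the members of controls and 5.56, 5.38 and 3.65% of those of mutants, and its level in dividing cells was 730 CPM. *Zic2* was at 8.16, 12.3 and 13.6 CPM in controls and 19.3, 37.5 and 19.8 CPM in mutants, again without overlap (log2 1.13, edgeR adjusted p = 0.0163 with the block). *Neurod1* was called as well (log2 0.68, edgeR adjusted p = 0.0277 with the block). A gene was tested where it had a UMI in 10% of the members of either genotype. *Id3* and *Zic2* were below that limit in controls and were tested through the mutants, where they were higher. Their separation is therefore a description. Cluster 7 gave 79.5% of the *Zic2* and 81.4% of the *Neurod1* UMIs of the members, and it held 5.43, 6.70 and 4.34% of the members of controls and 9.44, 12.7 and 5.94% of those of mutants. The part of these clusters, or of transcripts from other cells, in the differences was not tested.

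Of the other genes called with the block, *Mdk*, a heparin-binding growth factor, was at 15.3, 16.1 and 19.4 CPM in controls and 20.99, 31.3 and 30.6 CPM in mutants (log2 0.69, edgeR adjusted p = 0.0317). The immediate early gene *Egr1* was at 19.6, 15.2 and 11.7 CPM in controls and 29.5, 23.9 and 26.9 CPM in mutants (log2 0.77, edgeR adjusted p = 0.0194), beside a summed level of immediate early genes of 699 to 1452 CPM in controls and 1035 to 1436 CPM in mutants. All 9 tested immediate early and dissociation genes were above 0 in log2 difference, mutant minus control, with a median of 0.36 beside 0.0029 over all genes tested, none was called without the block, and their part in the result was not tested. *Sema5a*, a guidance molecule, was lower at 13.9, 21.4 and 16.4 CPM in mutants against 21.9, 34.8 and 27.5 CPM in controls, each mutant below its littermate (log2 -0.74, edgeR adjusted p = 0.0163). It is a leading gene of cluster 2 (73.7 CPM against 17.0 CPM in the other members). That cluster held 16.3, 13.9 and 18.2% of the members of controls and 12.8, 10.1 and 12.3% of those of mutants. The part of cluster 2 in this fall was not tested. *Tmem246* (log2 -0.47, edgeR adjusted p = 0.0493) was lower as well, and *B930036N10Rik*, *Txnip*, *Thsd7a* and *Hist1h2ap* were higher (log2 0.40 to 1.02). In the fits without the block, *Hist1h2ap* turned to -0.26 without mutant 1 and *Thsd7a* to -0.070 without mutant 2.

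A further 5 genes were among the 10 with the smallest p in the fit without the block and were not called by either fit. The repressor of neuronal genes *Rest* was at 4.84, 7.19 and 5.02 CPM in controls and 8.80, 12.9 and 11.6 CPM in mutants, *Plagl1* at 18.9, 21.2 and 19.9 against 9.82, 14.3 and 14.2 CPM, *Man2b1* at 7.39, 8.56 and 9.69 against 5.42, 4.78 and 4.22 CPM, and the channel subunit *Cacng3* at 14.02, 20.03 and 14.7 against 8.80, 11.4 and 9.76 CPM. The fifth, *Zic5*, was at 5.61, 4.79 and 9.33 CPM in controls and 14.6, 16.5 and 11.9 CPM in mutants. The genotypes did not overlap in any of these 5 genes, which were chosen by their small p, so the separation is a description. *Rest* and *Zic5* were also below the limit for testing in controls and were tested through the mutants, and *Man2b1* through the controls, in each case the genotype where they were higher. *Cacng3* is a leading gene of cluster 4, which held 8.14, 19.4 and 10.3% of control and 7.78, 15.7 and 7.76% of mutant members. *Zic5* stood at 59.2 CPM in cluster 7 and at 5.17 CPM in the other members. The part of these clusters was not tested.

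**Figure D5:**
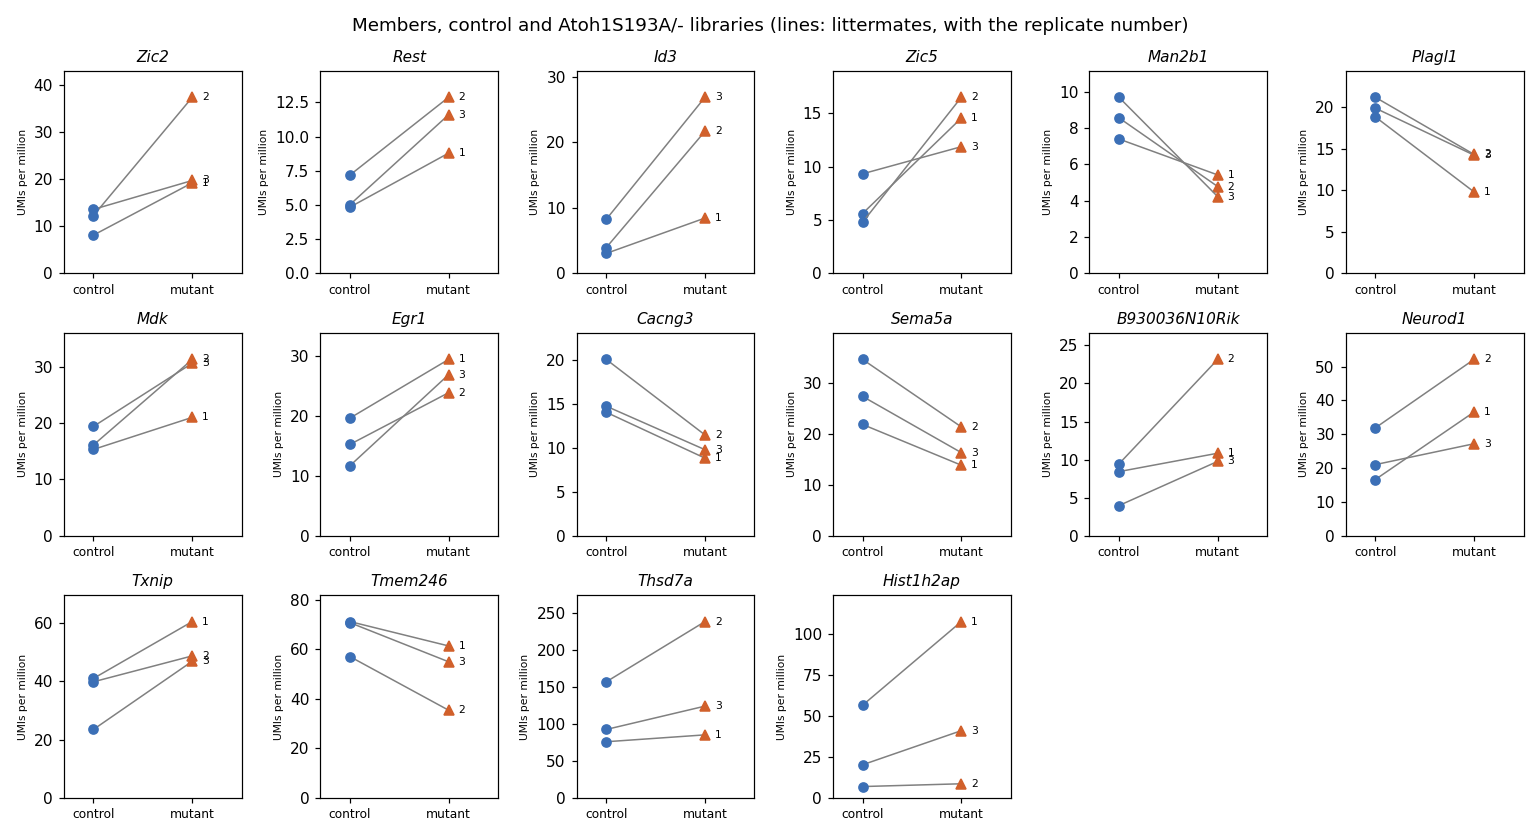
Levels (CPM, each panel with its own axis from 0) in control and Atoh1S193A/- members of the genes named for the genotype comparison, with lines between littermates. The mutant lies above its littermate in all 3 pairs for *Id3*, *Zic2*, *Mdk* and *Egr1* and below it for *Sema5a*.

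Dividing progenitor genes summed to 140 to 170 CPM in control and 153 to 216 CPM in mutant members, against 4585 to 5309 CPM in dividing cells. Unipolar brush cell markers, of which *Otx2* also belongs to choroid plexus, summed to 8.22 to 13.6 CPM in controls and 16.5 to 39.1 CPM in mutants. The genotypes did not overlap in this sum, which is 1 of those of 25 lists, and 5.43% of all genes tested had no overlap either. None of the 3 markers reached the limit for testing, so the separation is a description. *Otx2* alone was at 31.1 CPM in mutant 3 and at 3.57 to 4.85 CPM in the other 5 libraries. Granule and pontine lineage markers summed to 118 to 183 CPM in controls and 162 to 306 CPM in mutants, and glial markers to 32.2 to 71.6 and 36.7 to 52.5 CPM. Of the *Otx2* UMIs in members, 78.7% were in cluster 9. *Lmx1a*, another of the 3 unipolar brush cell markers, stood at 45.5 CPM in cluster 7 and at 1.57 CPM in the other members. The part of such transcripts in the genotype differences was not tested.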

How the data were processed

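The deposited files hold whole-number UMI counts per gene and cell, which the authors made from 10x Genomics libraries with Cell Ranger and a mouse genome (mm10) extended by a WPRE sequence, for 31054 genes. The submitters' notes name version 5.0.1, while the file headers give 3.1.0 for E14.5 control libraries 1 and 2. Binomial intervals of shares cover counting error only. Cells with at least 1000 genes and under 10% mitochondrial UMIs were kept, and doublets were only scored (Scrublet). The members and the gene lists were chosen with earlier results of these data known. Gene positions came from GENCODE M21. UMIs were summed per library and population and tested with edgeR 4.0.16 (quasi-likelihood test, TMM scaling, Benjamini-Hochberg adjustment, genes with a UMI in 10% of the cells of a group), on R 4.3.3. Populations were compared with the library as a block at an adjusted p under 0.05 and a log2 difference over 1, genotypes at 0.25. Shares, with 0.5 cells added, were compared on the logit scale with limma 3.58.1 over 5 classes of cells. Same-numbered libraries came from littermates and deviated together (r = 0.409, 0.672 and 0.410 for pairs 1, 2 and 3), so the fit with the replicate block is given where it changes a call. Libraries of different numbers had r from -0.490 to 0.148. These deviations are from means of 3 libraries and sum to 0, so the r values are not independent of each other. Clusters came from scanpy 1.11.5 (2000 variable genes, 30 components, Leiden resolution 0.5). Genes named were the markers, the 10 called in each direction with the largest change, the same direction in all 6 libraries and 20 CPM or more in the higher population, up to 6 of each list with the largest change or highest level, the 10 with the smallest genotype p and those called with the block, and the 5 leading genes of each cluster. *Xist* and Y-linked genes were left out, and some other genes that the rules would name are not reported here. Scripts were tested on simulated data. The alternatives were DESeq2 1.42.0, other scaling, filters, doublet, depth and mitochondrial limits, and each library left out.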

Additional observations from a re-analysis of the deposited data

How the results depend on the processing

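Results of the population comparisons kept their direction under every alternative run. Testing every gene with a UMI raised the counts of called genes, to 280 higher and 327 lower against neurons without *Foxp2*, to 467 and 380 against *Pax5* neurons, and to 109 and 268 against *Foxp2* neurons with Hoxb. It tested 21874, 21387 and 20431 genes, and 165, 269 and 174 of the genes called at first remained, *Calb2* and *Th* losing their calls against *Pax5* neurons. Leaving out each library in turn gave 81 to 97 higher and 76 to 84 lower genes, 146 to 165 and 115 to 138, and 35 to 63 and 128 to 144. Without the library block, the calls of *Atoh1*, *Calb2* and *Cntn2* against neurons without *Foxp2*, of *Fos* and *Fosb* against *Pax5* neurons, and of *Nr4a2*, *Calb1*, *Calb2*, *Irx5*, *Lhx5*, *Hoxc6* and *Sox9* against *Foxp2* neurons with Hoxb were lost. With the highest doublet scores removed or cells thinned to 8000 UMIs, *Calb1* and *En2* lost theirs in the last comparison. The fits without both controls of Cell Ranger 3.1.0 were chosen after seeing the data, and gave 138, 269 and 182 called genes, of which 131, 244 and 139 were among the main calls. The causes were not tested.

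For the genotype, the count of called genes was 0 in the main comparison, and with the replicate block it was 10 higher and 2 lower. DESeq2 called 1 higher and 0 lower. Leaving out each library gave 0 to 1 higher and 0 to 1 lower, the 1 higher without mutant 2 (*Cdh9*) and the 1 lower without control 3 (*AC160336.1*), both named after their values were seen. Leave-one-out differences ranged from -0.26 to 1.88 for *Hist1h2ap*, negative without mutant 1, and from -0.070 to 0.775 for *Thsd7a*, negative without mutant 2. The share difference at E14.5 ranged from -0.57 without mutant 2, the only alternative in which it passed, to -0.10 without mutant 1, and with the replicate block its adjusted p by limma was 0.235. At E18.5 it ranged from 0.0405 to 0.724, and with the block the limma adjusted p was 0.753. The replicate block changed no other call.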

Other observations

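Of the 201 cells within the same limits at E18.5, 71, 24 and 24 cells of mutants 3, 1 and 2 and 23, 33 and 10 cells of controls 1, 2 and 3 had a UMI of *Lhx9*. *Nr4a2* had a UMI in 6, 6 and 9 of the cells of controls 1, 2 and 3 and in 10, 6 and 13 of those of mutants 1, 2 and 3, and *Calb1* in 1, 3 and 2 and in 3, 0 and 8. *Sst* had a UMI in 13, 18 and 8 control cells and in 15, 12 and 42 mutant cells. *Th* was found in 1 cell, of control 3. *Nps* had a UMI in 1, 0 and 3 control cells and in 5, 1 and 4 mutant cells, at 5.00, 0 and 72.1 CPM in controls and 503, 328 and 69.9 CPM in mutants. The libraries held 13 to 78 such cells, so that single cells decided these levels, and the values were not tested.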
